A study of Mus musculus with 14 samples.

Results

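The genes described are 10 members of the NRF2 antioxidant pathway, of 24411 genes in the count files, chosen by name: Nfe2l2, Keap1, Nqo1, Gclc, Gclm, Hmox1, Txnrd1, Srxn1, Slc7a11 and Gsr. They were followed in bulk liver RNA of male littermate mice between 5 and 7 months old. WT mice were Rbbp5 (flox/flox) without the Alb-CRE transgene, and LKO mice (RBBP5 LKO) were Rbbp5 (flox/flox) with Alb-CRE (+/-), so both genotypes carried the floxed allele. Alb-CRE is driven by the albumin promoter, which is active in hepatocytes. Which other liver cells keep the floxed gene intact was not measured. Rbbp5 encodes a core subunit of the complexes that methylate histone H3 on lysine 4. Each mouse received one intraperitoneal injection between 9 and 10 am, either 0.05 mg/kg tunicamycin in 500 µl of 3% DMSO in PBS or that vehicle alone, and the liver was taken 8 h later. Tunicamycin blocks N-linked glycosylation of proteins and so stresses the endoplasmic reticulum. WT mice gave 3 vehicle and 3 tunicamycin samples, and LKO mice gave 3 vehicle samples (from 4 libraries) and 4 tunicamycin samples.

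NRF2, the product of Nfe2l2, is a transcription factor that KEAP1 holds in the cytoplasm and hands to a ubiquitin ligase for destruction. Oxidants and electrophiles modify cysteines of KEAP1, NRF2 then accumulates, pairs with small MAF proteins and switches on genes through the antioxidant response element. In liver its targets make glutathione, recycle thioredoxin and glutathione, reduce quinones and break down heme. Control of NRF2 is largely at the level of its protein, which RNA counts do not measure.

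The letters TGACNNNGC, the core of the antioxidant response element, were searched on both strands in RefSeq promoter windows of GRCm38.p6, which run from 250 bases before to 50 bases after each start. The table held windows for 7 of the 10 genes; Gclc, Hmox1 and Gsr were not among them. The core stood in 12.4% of all 32851 windows, and in those of Nfe2l2, Gclm, Txnrd1 and Srxn1 among the 7. A related form, TGAGNNNGC, stood in 17.6% of all windows and in those of Srxn1 and Slc7a11. The letters TGATGCAA, an amino acid response element read by ATF4 with C/EBP proteins, stood in 0.895% of all windows and in that of Slc7a11. The first 3 sequences below show the core in capitals with 10 bases on each side, 5′ to 3′ on the gene's strand. The matches lay 240, 134 and 92 bases before the start used for the window, in Nfe2l2, Gclm and Txnrd1. The 7 genes had 9 windows. The Txnrd1 match is in the window chr10:82858956-82859255, inside the gene's span of chr10:82833951-82897724, so its start is a later one within the gene. These sequences are shown because these members hold the core in this window.
Nfe2l2: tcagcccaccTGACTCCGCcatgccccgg
Gclm: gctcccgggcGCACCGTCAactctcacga
Txnrd1: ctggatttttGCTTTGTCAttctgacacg
The 250 bases before the start are printed for Slc7a11 (chr3:50443614-50443863, minus strand) and Srxn1 (chr2:152105274-152105523, plus strand), the members with most matches. In Slc7a11 the capitals mark TGATGCAA and its reverse complement, 66 and 47 bases before the start. In Srxn1 they mark TGAGNNNGC on either strand, 158 and 45 bases before the start, and the second of these overlaps the letters TGAGTCA of an AP-1 element. A match is a run of letters and was not tested as a binding site.
Slc7a11: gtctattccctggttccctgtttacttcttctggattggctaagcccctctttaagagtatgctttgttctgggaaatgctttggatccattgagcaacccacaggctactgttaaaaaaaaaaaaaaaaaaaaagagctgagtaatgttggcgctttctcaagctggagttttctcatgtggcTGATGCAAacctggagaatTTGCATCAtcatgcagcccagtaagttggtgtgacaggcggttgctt
Srxn1: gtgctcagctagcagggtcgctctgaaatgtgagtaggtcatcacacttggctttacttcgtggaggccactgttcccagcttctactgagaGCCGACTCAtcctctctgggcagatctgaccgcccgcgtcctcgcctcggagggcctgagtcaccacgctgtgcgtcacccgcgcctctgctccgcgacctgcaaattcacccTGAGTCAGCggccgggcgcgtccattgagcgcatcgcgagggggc

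Sense-strand reads on genes numbered 6507018 to 13519421 a library, and 1704479 to 3551398 without Rn45s, the ribosomal RNA gene that took 72.5 to 75.5% of them. Levels are given as CPM, reads scaled to a common library size that counts Rn45s. The LKO vehicle libraries 3 and 4 differed by less than other replicates did (1.12 per degree of freedom in a chi-square test of their counts, against 3.05 to 25.5 in the other 17 pairs) and were summed as 1 sample. Rbbp5, the deleted gene, averaged 5.19 ± 1.17 CPM (SD, n = 3) in WT livers given vehicle and 5.37 ± 0.343 CPM (n = 3) in WT livers given tunicamycin. In LKO livers the averages were 2.94 ± 1.13 CPM (n = 3) and 2.86 ± 0.598 CPM (n = 4). The library labelled LKO vehicle 1 stood at 4.15 CPM, inside the WT vehicle range, so directions drawn from it rest on its label. Hspa5, an ER chaperone, stood at 854, 313 and 786 CPM in WT tunicamycin livers 1 to 3, against 197 to 253 in WT vehicle livers. In the same order Ddit3, a stress-induced transcription factor gene, read 26.3, 1.30 and 20.4 CPM, and it lay between 0.641 and 1.89 in WT vehicle livers, so the library labelled WT tunicamycin 2 overlapped its controls. In LKO livers Hspa5 ran from 117 to 173 CPM with vehicle and from 142 to 229 CPM after tunicamycin. Ddit3 ran there from 0.438 to 0.831 CPM and from 0.390 to 2.04 CPM, so the LKO groups overlapped for both genes. Hepatocyte markers, 8 of 8 detected, dominated the named markers in every group. The labels do not say that samples of a group came from separate mice, and p-values measure the spread between these samples.

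None of the 10 genes was called in any of the planned comparisons. Of the 10, 8 passed the filter on low counts and Nqo1 and Slc7a11 did not. At an adjusted p under 0.05 (edgeR quasi-likelihood test, Benjamini-Hochberg over 9644 genes), 0 of 8 were called for tunicamycin against vehicle in WT, where 0.363% of all genes were. The count was also 0 of 8 for tunicamycin in LKO (0.0311% of all genes), LKO against WT with vehicle (0.0415%), LKO against WT after tunicamycin (0.861%) and the interaction (0%). At an unadjusted p under 0.05, 2 of the 8 passed for tunicamycin in WT (14.8% of all genes), and 0 passed in LKO (12.2%), in LKO against WT with vehicle (8.15%), after tunicamycin (15.8%) and in the interaction (4.91%). Their median log2 fold change was 0.09 for tunicamycin in WT, against 0.01 over all genes, and -0.06 in LKO, against 0.00. DESeq2's Wald test also called 0 in each of these comparisons, though it gave no adjusted p for Hmox1 and Srxn1 for tunicamycin in WT, nor for 6 of the 8 genes in LKO.

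The 95% intervals, which are not adjusted for the number of genes, say how large a difference the data still allow. All 8 intervals of LKO against WT with vehicle lay within 1 log2 unit of 0, that is, within a 2-fold difference either way. For tunicamycin this held for 6 of 8 genes in WT and 7 of 8 in LKO, and for LKO against WT after tunicamycin for 7 of 8. Those outside were Hmox1, for tunicamycin in either genotype and between genotypes after tunicamycin, and Gclc for tunicamycin in WT. In the interaction 6 of 8 lay within this range, Hmox1 and Gclc again being outside.

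**Figure D1:**
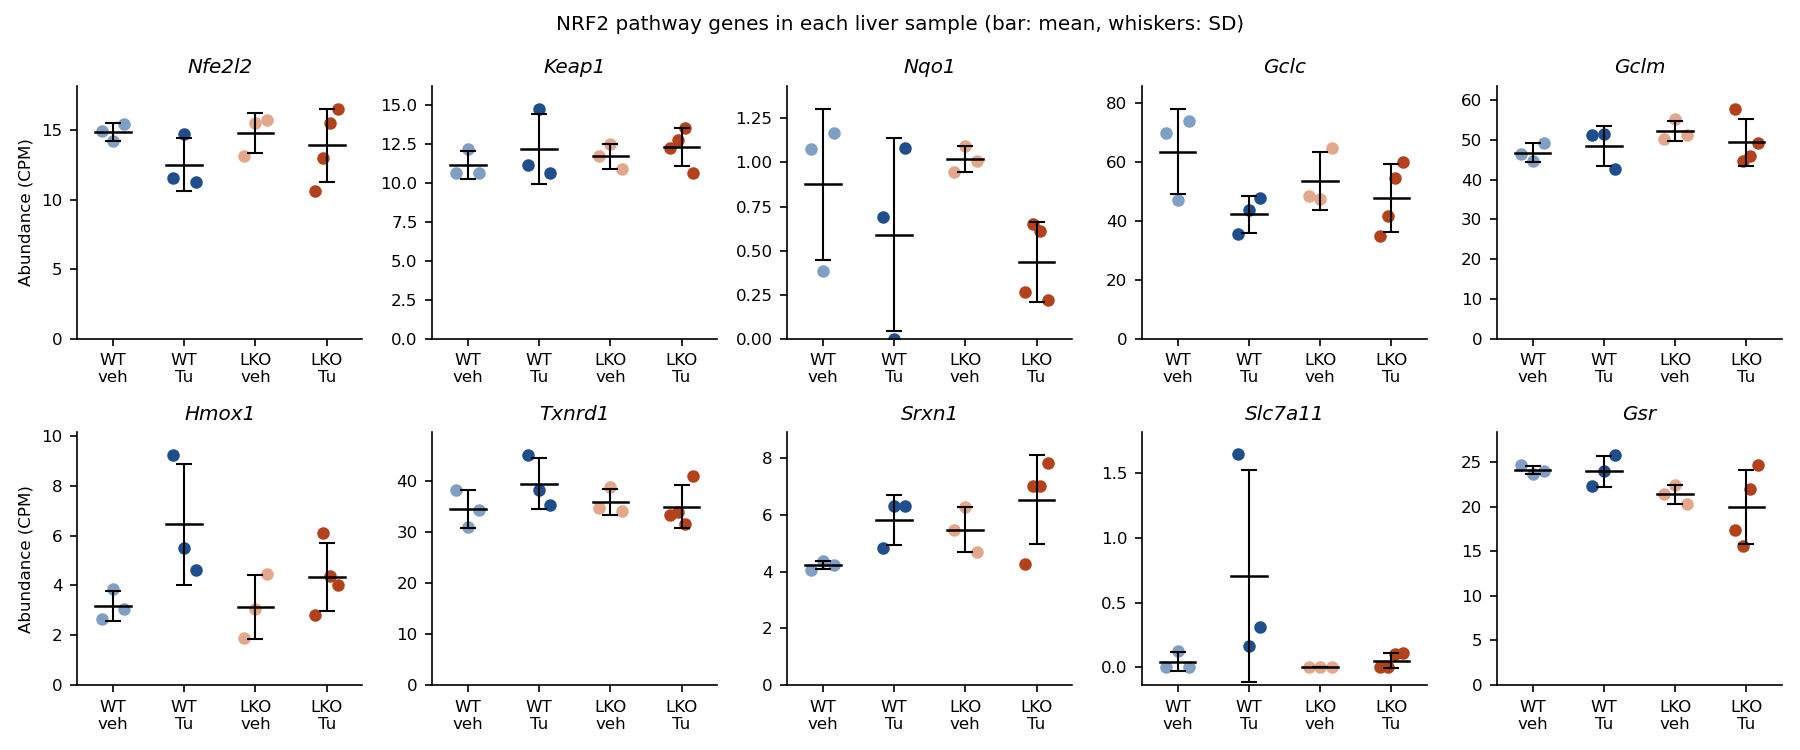
Level of each of the 10 genes in CPM (y axis, from 0 or from the lowest whisker) in the 13 samples by group (x axis: veh, vehicle; Tu, tunicamycin), with points for samples, bars for means and whiskers for SD. Hmox1 and Srxn1 are higher in all 3 WT tunicamycin livers than in the 3 WT vehicle livers, and among the other 6 genes tested those groups overlap. The Slc7a11 panel rests on 0 to 12 reads a sample.

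The factor and its inhibitor came first. Nfe2l2 (chr2:75675519-75704641 in the authors' mm10 table) was at 15.0, 14.2 and 15.5 CPM in WT vehicle livers and at 11.6, 14.8 and 11.3 CPM in WT tunicamycin livers. In LKO it was at 13.2, 15.5 and 15.7 CPM with vehicle and at 10.7, 13, 15.5 and 16.5 CPM after tunicamycin. Livers 1 and 3 of WT tunicamycin and liver 1 of LKO tunicamycin were the lowest, and the groups overlapped in both genotypes. The log2 difference for tunicamycin was -0.25 ± 0.16 (SE; 95% interval -0.60 to 0.10; edgeR adjusted p = 0.510) in WT and -0.09 ± 0.14 (-0.39 to 0.21; adjusted p = 0.861) in LKO. Between genotypes it was 0.00 ± 0.15 with vehicle and 0.16 ± 0.15 after tunicamycin. Keap1 (chr9:21229730-21239332), the sensor that targets NRF2 for degradation, lay between 10.6 and 14.8 CPM in all 13 samples. Its log2 differences ran from 0.02 to 0.12 over the tunicamycin and genotype comparisons, with adjusted p-values (edgeR) from 0.757 for tunicamycin in WT to 0.972 between genotypes after tunicamycin. The intervals of both genes lay inside a 2-fold difference in each of these comparisons.

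Glutathione synthesis starts with glutamate-cysteine ligase, whose catalytic subunit is encoded by Gclc (chr9:77754535-77794489) and whose modifier subunit is encoded by Gclm (chr3:122245557-122267215). Gclc was at 69.9, 47.0 and 73.9 CPM in WT vehicle livers and at 35.5, 43.6 and 47.7 CPM in WT tunicamycin livers. LKO livers held 48.3, 47.5 and 65.0 CPM with vehicle and 34.9, 41.8, 54.5 and 59.9 CPM after tunicamycin. WT vehicle liver 2 lay just inside the tunicamycin range, so the WT groups overlapped. The WT difference was -0.59 ± 0.21 on the log2 scale (interval -1.03 to -0.15; unadjusted p = 0.0122, edgeR adjusted p = 0.196), and the LKO difference was -0.16 ± 0.19 (-0.57 to 0.24; adjusted p = 0.793). The interaction, the LKO effect minus the WT effect, was 0.43 ± 0.28 (-0.18 to 1.03; adjusted p = 0.982), so a difference between genotypes was not shown.

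Gclm was at 46.6, 44.7 and 49.3 CPM in WT vehicle livers and at 51.2, 51.6 and 42.8 CPM in WT tunicamycin livers. With LKO it was at 50.4, 55.2 and 51.4 CPM after vehicle and at 57.8, 44.6, 46.0 and 49.2 CPM after tunicamycin. The 3 LKO vehicle livers all exceeded the 3 WT vehicle livers, and the treated groups overlapped their controls. The log2 difference for tunicamycin was 0.05 ± 0.12 (-0.21 to 0.31; edgeR adjusted p = 0.890) in WT and -0.08 ± 0.11 (-0.32 to 0.16; adjusted p = 0.828) in LKO. That for LKO against WT with vehicle was 0.16 ± 0.12 (-0.10 to 0.42; adjusted p = 0.773).

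Since both subunits form one enzyme, the reads of Gclc per read of Gclm were compared within each sample, a measure added after the data were seen. This ratio needs no library scaling. It was 1.50, 1.05 and 1.50 in WT vehicle, 0.694, 0.846 and 1.12 in WT tunicamycin, 0.960, 0.860 and 1.26 in LKO vehicle and 0.604, 0.936, 1.19 and 1.22 in LKO tunicamycin livers. The means were 1.35 ± 0.259, 0.885 ± 0.214, 1.03 ± 0.211 and 0.986 ± 0.285 (SD; n = 3, 3, 3 and 4), and all groups overlapped. Two-sided exact permutation tests gave p = 0.2 for tunicamycin in WT (the smallest possible is 0.1), p = 0.771 in LKO and p = 0.12 for tunicamycin within genotype over 700 arrangements. Over the 5 comparisons made, the smallest adjusted p was 0.333.

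**Figure D2:**
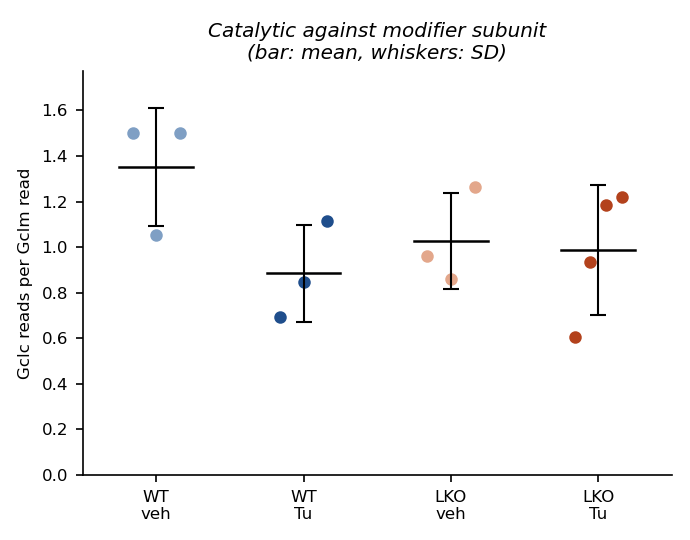
Reads of Gclc per read of Gclm (y axis, from 0) in the 13 samples by genotype and treatment (x axis: veh, vehicle; Tu, tunicamycin), with bars for means and whiskers for SD. WT vehicle livers 1 and 3 are the highest at 1.50, and the groups overlap.

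Cystine for glutathione enters through the exchanger encoded by Slc7a11 (chr3:50364936-50443613). Its reads numbered 0, 1 and 0 in WT vehicle livers, 12, 1 and 2 in WT tunicamycin livers, 0 in each LKO vehicle liver and 0, 0, 1 and 1 in LKO tunicamycin livers. WT tunicamycin 1 thus held most of the gene's reads. Every other sample was at or under 3 reads, which is also what a count of 0 allows (0.178 to 0.486 CPM by library, for counting error only). With no filter on low counts, edgeR gave an adjusted p of 0.0937 for tunicamycin in WT and 0.0653 for LKO against WT after tunicamycin, and no fold is given against groups at or near 0. In the same library Ddit3 and Trib3, which are targets of ATF4 as Slc7a11 is, stood at 26.3 and 9.22 CPM. WT tunicamycin liver 3 had 2 reads of Slc7a11 with Ddit3 at 20.4 and Trib3 at 8.64 CPM, and liver 2 had 1 read with Trib3 at 0.649 CPM. Slc3a2, the partner subunit of the exchanger, was at 7.57, 7.30 and 10.8 CPM in those 3 livers and between 4.37 and 6.11 CPM in WT vehicle livers. In LKO its reads, not scaled to depth, numbered 43, 63 and 124 (the last summed over libraries 3 and 4) with vehicle. After tunicamycin they numbered 47, 47, 44 and 70. Slc3a2 was not called in any comparison.

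Hmox1 (chr8:75093618-75100593), which encodes the inducible heme oxygenase, had the largest log2 difference of the 8 genes tested. It was at 2.63, 3.84 and 3.06 CPM in WT vehicle livers and at 9.22, 5.51 and 4.63 CPM in WT tunicamycin livers. In LKO it was at 1.90, 3.07 and 4.45 CPM with vehicle and at 2.80, 6.12, 4.38 and 4.02 CPM after tunicamycin. All 3 WT tunicamycin livers exceeded all 3 WT vehicle livers, liver 1 by most, while the LKO groups overlapped. Together with Srxn1 this made 2 of 8 genes whose WT groups did not overlap, against 17.3% of all genes.

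The WT difference of Hmox1 was 1.03 ± 0.33 on the log2 scale, or 2.05-fold (95% interval 1.25 to 3.34), with an unadjusted p of 0.00678 and an edgeR adjusted p of 0.160. In LKO it was 0.39 ± 0.29, or 1.31-fold (0.854 to 2.02; adjusted p = 0.651). The interaction was -0.64 ± 0.45 (-1.58 to 0.30; adjusted p = 0.982), and LKO against WT after tunicamycin was -0.59 ± 0.29 (-1.21 to 0.03; adjusted p = 0.339). Hmox1 is a gene of few reads here, 16 to 75 a sample. With no filter on low counts its WT difference passed the threshold at 1.01 (adjusted p = 0.0380), as it did without WT tunicamycin 3 at 1.22 (adjusted p = 0.0447), and without WT tunicamycin 1 it was 0.67 (adjusted p = 0.546). On the log2(FPKM + 1) scale it was 0.47 (limma adjusted p = 0.428). Adding 1 shrinks the difference of a gene near 1 FPKM. Hmox1 averaged 0.981 FPKM in WT vehicle and 1.84 FPKM in WT tunicamycin livers.

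Macrophages that take up red cells are a known site of heme oxygenase, so their markers are given beside Hmox1. The summed level of 11 Kupffer cell and macrophage markers ranged from 60.1 to 71.9 CPM in WT vehicle, 67.8 to 92.2 in WT tunicamycin, 46.8 to 78.1 in LKO vehicle and 74.2 to 141 in LKO tunicamycin livers. All 11 had a positive log2 difference for tunicamycin in each genotype, with 0 called (7 of 11 at an unadjusted p under 0.05 in LKO and 0 in WT), and none was at 0 reads in any group. The 4 neutrophil markers in the files summed to 0.128 to 0.875 CPM in WT vehicle, 0.309 to 7.84 in WT tunicamycin, 0.474 to 2.41 in LKO vehicle and 3.37 to 7.29 in LKO tunicamycin livers. By group median the macrophage sum was highest in LKO tunicamycin livers (100.2 CPM) and the neutrophil sum in WT tunicamycin livers (4.22 CPM, against 3.72 in LKO tunicamycin livers). The part of these cells in the Hmox1 values was not tested. In bulk liver, fewer cells of a type and less RNA per cell cannot be told apart. The 4 hemoglobin genes of the red cell list were at 0 reads in every library, while Alas2 of that list had 67 to 279 reads a sample. Counts are uncertain where near-identical relatives share reads, so these zeros do not show that red cells were absent.

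Thioredoxin and peroxiredoxin enzymes were next. Srxn1 (chr2:152105524-152111376), which encodes sulfiredoxin and restores overoxidised peroxiredoxins, was at 4.07, 4.36 and 4.23 CPM in WT vehicle livers and at 4.82, 6.32 and 6.33 CPM in WT tunicamycin livers. In LKO it was at 5.45, 6.28 and 4.69 CPM with vehicle and at 4.26, 7.03, 7.03 and 7.82 CPM after tunicamycin. The 3 WT vehicle livers lay together below every other sample but LKO tunicamycin 1. The log2 difference was 0.46 ± 0.23 for tunicamycin in WT (-0.02 to 0.94; edgeR adjusted p = 0.357) and 0.27 ± 0.18 in LKO (-0.11 to 0.66; adjusted p = 0.602). LKO exceeded WT with vehicle by 0.37 ± 0.21 (-0.08 to 0.82; adjusted p = 0.680). On the log2(FPKM + 1) scale the WT tunicamycin difference was 0.16 (limma adjusted p = 0.618). Adding 1 shrinks this difference too, as Srxn1 averaged 0.817 FPKM in WT vehicle and 1.03 FPKM in WT tunicamycin livers.

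Txnrd1 (chr10:82833951-82897724), the cytosolic thioredoxin reductase, lay between 30.9 and 45.0 CPM in all 13 samples. Its log2 difference for tunicamycin was 0.20 ± 0.13 in WT (-0.09 to 0.48; edgeR adjusted p = 0.530) and -0.04 ± 0.12 in LKO (-0.30 to 0.22; adjusted p = 0.936). The interaction was -0.23 ± 0.18 (adjusted p = 0.982).

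Glutathione is recycled by the reductase that Gsr (chr8:33653238-33698162) encodes. Gsr was at 24.7, 23.7 and 24.1 CPM in WT vehicle livers and at 22.3, 24.0 and 25.8 CPM in WT tunicamycin livers. LKO livers had 21.4, 22.5 and 20.4 CPM with vehicle and 17.5, 15.6, 22.0 and 24.8 CPM after tunicamycin. All 3 LKO vehicle livers lay below all 3 WT vehicle livers, while after tunicamycin the genotypes overlapped. LKO against WT was -0.17 ± 0.14 with vehicle (-0.48 to 0.13; edgeR adjusted p = 0.795) and -0.26 ± 0.14 after tunicamycin (-0.55 to 0.03; adjusted p = 0.379). Gsr, Gclm and Srxn1 were thus 3 of 8 genes that did not overlap between genotypes with vehicle, against 15.1% of all genes. After tunicamycin the count was 0 of 8 (12.9% of all genes), and it was 0 of 8 for tunicamycin in LKO (11.6%). The summed level of 6 stellate cell and fibroblast markers was 63.3 to 104 CPM in WT and 111 to 150 CPM in LKO vehicle livers. For 5 bile duct markers it was 8.60 to 11.7 and 17.4 to 55.2 CPM. Most reads of this sum were of Spp1, with 80, 54 and 30 in WT and 102, 698 and 586 in LKO vehicle livers. Krt19, Krt7 and Epcam had 0 to 14 reads in each of these samples, and 2 of the 5 genes were tested. The bile duct sum is thus mainly a reading of Spp1. Neither sum overlapped between genotypes with vehicle, those of the other cell types did, and 0 markers of these 2 lists were called. The part of these cells in the members' values was not tested.

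Nqo1 (chr8:107388225-107403205), the quinone reductase often read as a marker of NRF2 activity, was close to the limit of detection in these livers. Its reads numbered 9, 3 and 8 in WT vehicle, 5, 0 and 7 in WT tunicamycin, 8, 15 and 17 in LKO vehicle and 2, 5, 6 and 2 in LKO tunicamycin livers. Scaled to depth these were 0.948 to 1.10 CPM in LKO vehicle livers and 0.217 to 0.651 CPM in LKO tunicamycin livers, which did not overlap, while the WT groups did. With no filter on low counts the LKO difference was -1.21 ± 0.51 (-2.23 to -0.19; unadjusted p = 0.0209, edgeR adjusted p = 0.379) and the WT difference was -0.54 ± 0.61 (-1.77 to 0.68; adjusted p = 0.796). At this depth neither was told from 0 after adjustment.

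**Figure D3:**
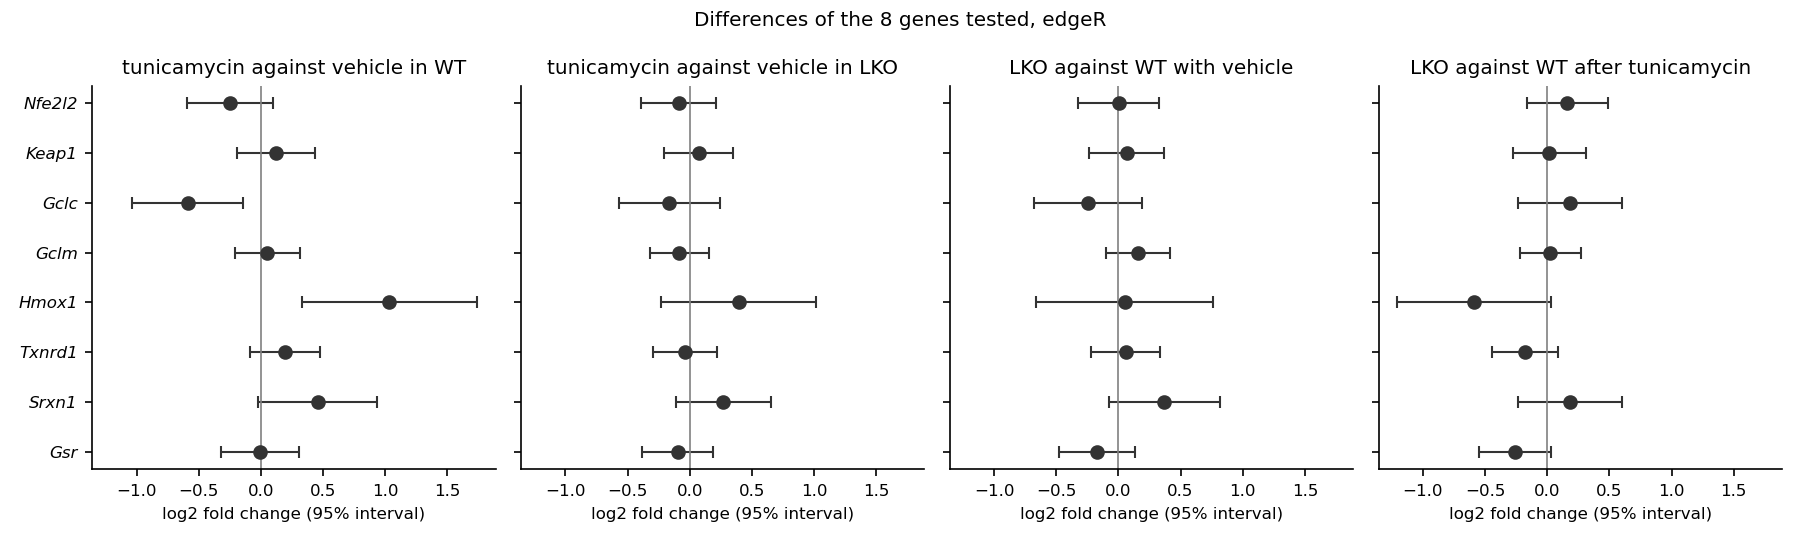
Log2 fold changes (x axis) of the 8 genes tested (y axis) in each of 4 comparisons, with points for edgeR estimates and whiskers for unadjusted 95% intervals. Hmox1 has the widest intervals, and Hmox1 and Gclc in WT are the only intervals that exclude 0.

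Per unit of transcript length, the deposited FPKM values over 14 libraries put Gclm highest, with a median of 10.6 FPKM (8.02 to 12.7). Gclc followed at 5.78 (3.88 to 8.93), Txnrd1 at 4.16 (3.72 to 5.42), Gsr at 3.46 (2.22 to 3.92), Nfe2l2 at 2.90 (1.85 to 3.46) and Keap1 at 1.85 (1.44 to 2.10). Hmox1 stood at 1.22 (0.591 to 2.95), Srxn1 at 1.0 (0.798 to 1.60), Nqo1 at 0.251 (0 to 0.441) and Slc7a11 at 0.0033 (0 to 0.0768). The column of LKO vehicle 2 lists Rn45s at 0, so its scaling may differ from the others. Neighbours in this order overlapped in their ranges, except Srxn1 and Nqo1, whose ranges were apart.

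Because no member was called in either genotype, the tunicamycin effect was also averaged over both genotypes in the same fit, a contrast added after the data were seen. Here 4.32% of all genes were called, and 0 of the 8 members were. Hmox1 had the largest difference, 0.71 ± 0.22 on the log2 scale (0.24 to 1.19; unadjusted p = 0.00538, edgeR adjusted p = 0.0762). Gclc was at -0.38 ± 0.14 (-0.68 to -0.08; adjusted p = 0.137) and Srxn1 at 0.36 ± 0.15 (0.06 to 0.67; adjusted p = 0.161). These were 3 of 8 at an unadjusted p under 0.05, against 20.2% of all genes. Hmox1 passed the threshold with no filter on low counts (adjusted p = 0.0148) and without WT tunicamycin 3 (adjusted p = 0.0269), and Gclc with no filter (adjusted p = 0.0441).

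The surrounding pathway was read from lists of 99 further genes, of which 91 were tested. In WT, tunicamycin called 1 of these (1.10%, against 0.363% of all genes), Ddit3, which rose by 3.71 ± 0.72 on the log2 scale (edgeR adjusted p = 0.0399). In LKO it called 0 (0.0311% of all genes), LKO against WT with vehicle called 0 (0.0415%), and the interaction called 0 (0%). After tunicamycin, 2 genes (2.20% of the 91, against 0.861% of all genes called) were lower in LKO than in WT livers. They were Trib3 at -2.91 ± 0.59 (edgeR adjusted p = 0.0332) and Ddit3 at -4.02 ± 0.66 (adjusted p = 0.0149), and both groups overlapped through WT tunicamycin 2. The size of these differences held better than the calls when single samples were left out. With 1 of the 13 samples left out at a time, Ddit3 in WT lay between 3.14 and 4.24 and was called in 5 of 13 cases, the call being lost without WT tunicamycin 1 (3.14, adjusted p = 0.203), without any WT vehicle sample (adjusted p = 0.153 to 0.206) and, barely, without any LKO tunicamycin sample (0.0516 to 0.0600). It was also lost when the 2 groups were fitted alone (adjusted p = 0.113) and on both FPKM scales (limma adjusted p = 0.239 and 0.243). Between genotypes Ddit3 lay between -4.79 and -3.46 and was called in 11 of 13 cases, and Trib3 lay between -3.42 and -2.50 and was called in 6 of 13. Both were lost without WT tunicamycin 1 (-3.46 and -2.50; adjusted p = 0.1004 and 0.183) and without LKO tunicamycin 4 (-3.95 and -2.62; adjusted p = 0.0502 and 0.101). On log2(FPKM + 1) and log2(FPKM + 0.1) both calls between genotypes were lost and the differences were smaller. Ddit3 was there at -2.18 and -3.06 (limma adjusted p = 0.155 and 0.149), and Trib3 at -0.90 and -1.86 (0.193 and 0.224). With the 2 groups fitted alone, Ddit3 was at -4.01 (edgeR adjusted p = 0.0506). Averaged over genotypes, 3 rose and 10 fell, or 14.3% of the 91, against 4.32% of all genes. Of these 13 calls, 13 stood without WT tunicamycin 3, 0 without WT tunicamycin 1 (smallest adjusted p = 0.0508) and 2 to 11 when any other sample was left out. None of the 13 changed sign in these cases. Their log2 differences stayed between 0.825 and 1.50 times the values given here, except that Txnip was at 0.531 times without the summed LKO vehicle libraries 3 and 4 (-0.50, adjusted p = 0.0656). With limma, 0 of the 13 calls stood on log2(FPKM + 1) and 1 on log2(FPKM + 0.1).

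Among the genes that fell in the averaged contrast, 6 were further NRF2 targets. Of 28 further NRF2 targets tested, 0 rose, and 24 of the 28 had a negative difference, with a median of -0.31 against 0.01 over all genes. Over all genes 2.15% fell and 2.18% rose. In the same contrast markers of other cells were called too. Both neutrophil markers tested rose, S100a8 by 2.51 and S100a9 by 2.34 on the log2 scale (edgeR adjusted p = 0.0273 and 0.0257), while Alas2, the one red cell marker tested, fell by 0.52 (adjusted p = 0.0282). In the red cell list Slc4a1 had 0 to 6 reads a sample and the hemoglobin genes had 0, so Alas2 alone does not say how red cells changed. All 11 macrophage markers had a positive difference (median 0.40, 4 at an unadjusted p under 0.05, 0 called). Of 8 hepatocyte markers 2 had a positive and 6 a negative difference, with a median of -0.22. The 1 called was Fgb, which rose by 1.16 (edgeR adjusted p = 0.0190). The calls of S100a8, S100a9, Alas2 and Fgb were lost without WT tunicamycin 1 as well (adjusted p = 0.0585 to 0.132). The part of these cells in the values of the further targets was not tested. The further targets called were Cyp2a5 at -1.56 ± 0.33 (adjusted p = 0.0193), Ces1g at -1.06 ± 0.28 (adjusted p = 0.0407), Gsta3 at -0.99 ± 0.27 (adjusted p = 0.0462), Gsta4 at -0.97 ± 0.25 (adjusted p = 0.0373), Aox1 at -0.75 ± 0.17 (adjusted p = 0.0244) and Tkt at -0.42 ± 0.10 (adjusted p = 0.0339). They encode a cytochrome P450, a carboxylesterase, 2 glutathione transferases, an aldehyde oxidase and transketolase. Counts of Cyp2a5 and of the transferases are uncertain where near-identical relatives share reads. Cyp2a5 was at 162, 206 and 212 CPM in WT vehicle and at 46.4, 47.2 and 202 CPM in WT tunicamycin livers, so WT tunicamycin 3 lay within its controls. In LKO it was at 165, 127 and 280 CPM with vehicle and at 28.9, 39.4, 26.5 and 75.8 CPM after tunicamycin, with no overlap. The count of further targets called was 0 without WT tunicamycin 1, 14 without WT tunicamycin 3 and 0 with limma on log2(FPKM + 1).

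**Figure D4:**
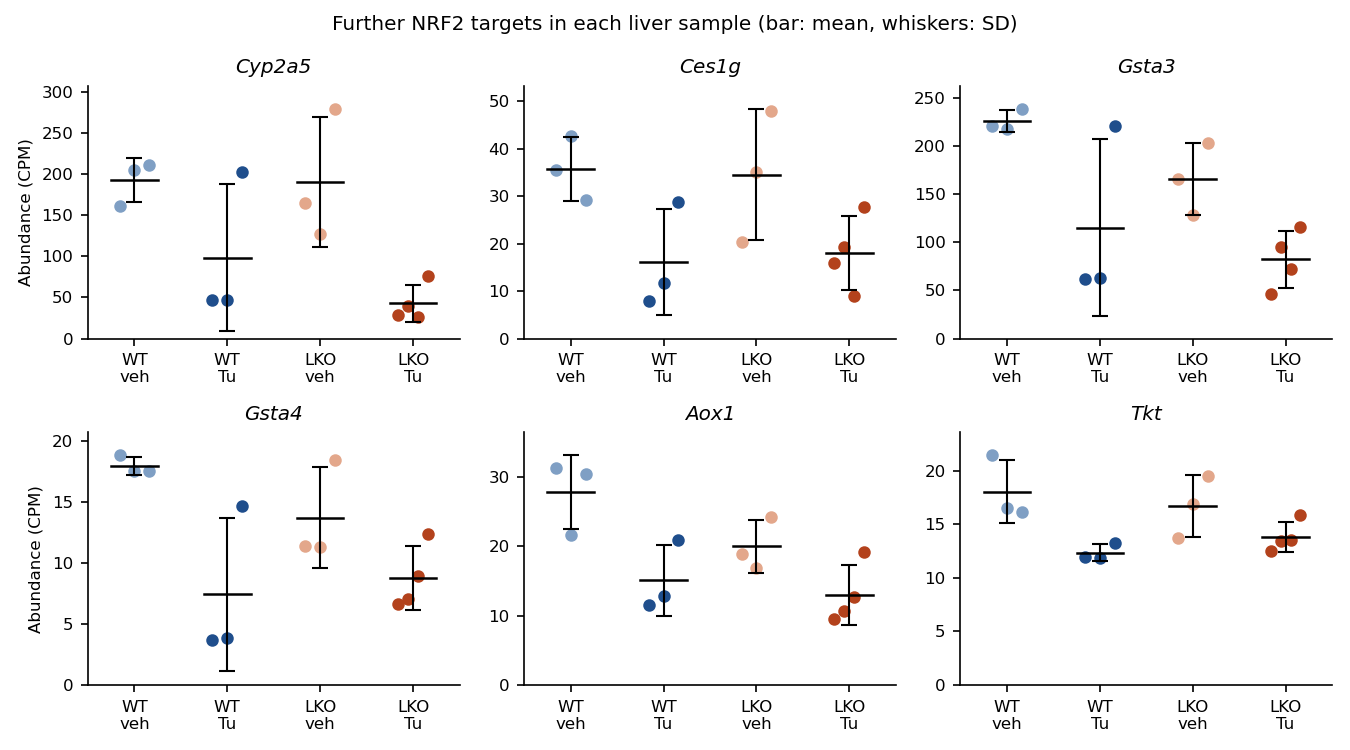
Levels in CPM (y axis, from 0) of the 6 further NRF2 targets that fell in the averaged tunicamycin contrast, in the 13 samples by group (x axis: veh, vehicle; Tu, tunicamycin), with bars for means and whiskers for SD. In the Cyp2a5, Ces1g, Gsta3 and Gsta4 panels WT tunicamycin 3 stands well above the other 2 WT tunicamycin livers.

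In the remaining lists the averaged calls were few. Ahcy, of the methionine cycle that feeds cysteine supply, fell by 0.43, Txnip, which binds thioredoxin, fell by 0.94, and Sod2 and Cat, which remove superoxide and hydrogen peroxide, fell by 0.35 and 0.52 on the log2 scale. Gpx3, a secreted glutathione peroxidase, rose by 1.05, and the ATF4 targets Chac1 and Trib3 rose by 1.27 and 2.15. Their adjusted p-values (edgeR) ran from 0.0195 for Sod2 to 0.0461 for Ahcy. Gpx3, Chac1 and Trib3 had few reads, 5 to 57, 3 to 28 and 2 to 67 a sample. Of 15 partners and regulators of NRF2, 8 tested heme and iron genes and 17 glutathione genes, 0, 0 and 1 were called.

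**Figure D5:**
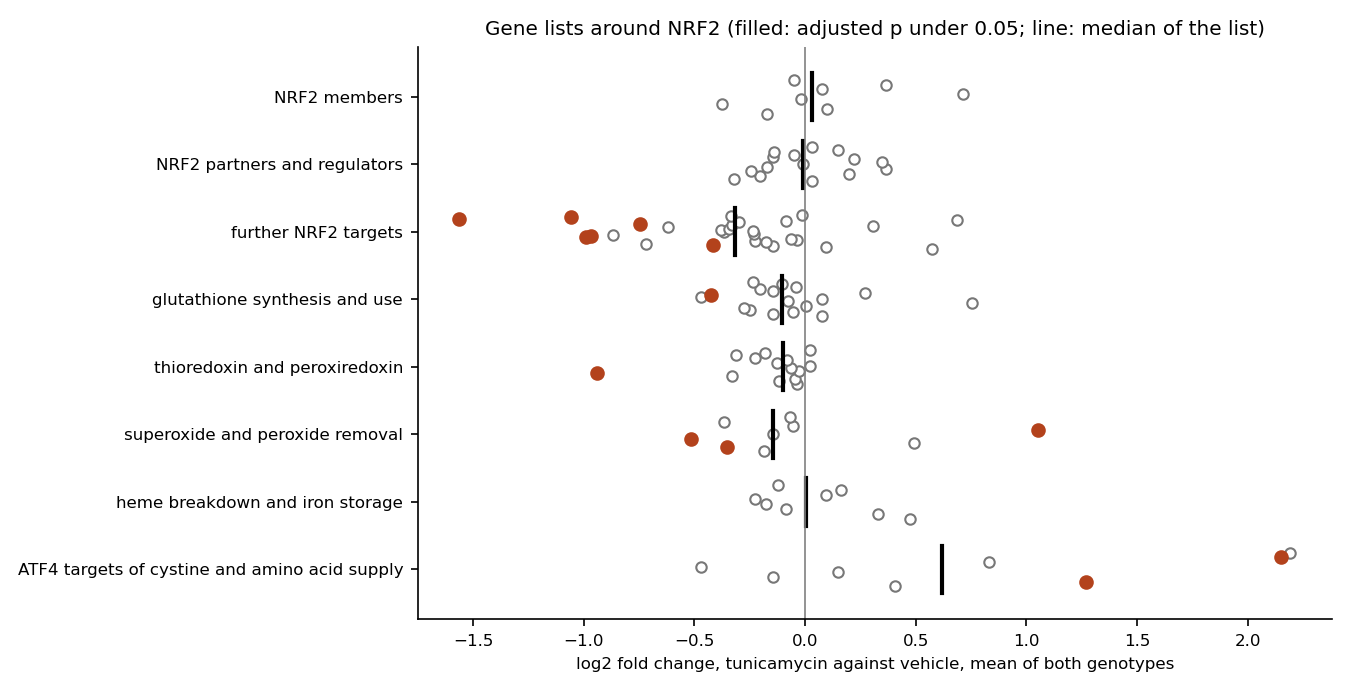
Log2 fold change for tunicamycin averaged over both genotypes (x axis) of each gene tested in 8 lists (y axis), with filled points for genes at an adjusted p under 0.05 and a line at each list's median. The 28 further NRF2 targets have a median of -0.31, and the 8 members have a median of 0.03.

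Sqstm1, which encodes p62, a protein that binds KEAP1 and is itself an NRF2 target, came closest to a call among partners and regulators in WT. It was at 40.6, 36.0 and 42.0 CPM in WT vehicle and at 69.9, 47.5 and 58.0 CPM in WT tunicamycin livers, with no overlap, and its log2 difference was 0.57 ± 0.14 (edgeR adjusted p = 0.0846). Among the 2 largest WT differences of each list, those not called were also Trib3 (3.23), Gsta4 (-1.28), Ces1g (-1.15), Txnip (-1.11), Gpx3 (0.94), Ggct (0.78) and Sod3 (0.63). Smaller ones were Hmox2 (0.47), Glrx (-0.41), Txnrd3 (-0.38), Pgam5 (0.34) and Blvra (0.13), all as log2 differences.

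For LKO against WT after tunicamycin, the 2 largest log2 differences were taken from each list, and those of the ATF4 targets were the called Ddit3 and Trib3. On the positive side, the uncalled ones of the other lists were Gstm3 (1.49), G6pdx (1.43), Gpx3 (0.88), Txnrd3 (0.57), Btrc (0.55) and Slc40a1 (0.53). Maff (-0.60), Gpx1 (-0.49), Msra (-0.47), Ahcy (-0.45) and Cd163 (-0.39) lay on the other side. Larger uncalled differences in the same lists, ranked below those 2 and named after their values were seen, were Chac1 (-1.26), Cyp2a5 (-1.21) and Ddit4 (1.19). G6pdx, which supplies NADPH to the reductases, had an edgeR adjusted p of 0.0511 and Msra, a methionine sulfoxide reductase, had 0.0603. The members' own log2 differences in that comparison ran from -0.59 for Hmox1 to 0.18 for Gclc and Srxn1.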

How the data were processed

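Liver RNA was read as gene counts and FPKM of 14 libraries. Per the file headers, the deposited counts are STAR's reads per gene, and the deposited FPKM values (fragments per length of transcript, scaled to the library) carry Cufflinks column names. Trimmomatic, STAR, Cufflinks and mm10 are named in the submitters' processing notes, with no version. The count column of reads on the gene's strand was used, and LKO vehicle libraries 3 and 4 were summed. Counts were fitted with edgeR 4.0.16 in R 4.3.3 (TMM, filterByExpr, quasi-likelihood test, 1 mean per group, 13 samples, 9 residual degrees of freedom), with 9644 genes tested and calls at an adjusted p under 0.05. FPKM alternatives used limma 3.58.1 on log2(FPKM + 1) and log2(FPKM + 0.1), and DESeq2 1.42.0 was a further alternative. The model was also run on simulated counts. Changes were put only into genes with more reads, and no outlying sample was simulated. That run therefore does not cover the members with the fewest reads or calls that hang on a single sample. Reads have no molecular identifiers, so counting limits cover counting error only.

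The members, lists and tests were chosen with earlier results of these data known. Named genes are the members, the list genes called in a comparison, otherwise the 2 largest differences per list for tunicamycin in WT and for LKO against WT after tunicamycin, and Rbbp5, Hspa5 and Ddit3. Slc3a2 and the cell type markers called in the averaged contrast were named after their values were seen. Genes most like Nqo1 were not sought, because Nqo1 fell below the filter.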

Additional observations from a re-analysis of the deposited data

How the results depend on the processing

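Of 1080 alternative values of the members' 48 differences, 1020 kept their direction and side of the threshold, 54 changed sign and 6 passed the threshold. The members' values that changed sign lay between -0.18 and 0.12 as reported, and the cause was not tested. Blvra, a gene of the heme list and not a member, is given beside them (0.13 as reported for tunicamycin in WT). Total count scaling moved the median of all genes by -0.19 for tunicamycin in WT, by 0.15 for LKO against WT after tunicamycin and for the interaction, and by -0.12 in the averaged contrast. Under it, and then under log2(FPKM + 1) and log2(FPKM + 0.1), the WT tunicamycin differences were -0.073, -0.012 and -0.018 for Keap1, -0.14, -0.091 and -0.10 for Gclm, and -0.057, -0.30 and -0.65 for Blvra. In the same order the interaction of Keap1 was 0.10, 0.081 and 0.12 and the averaged difference of Txnrd1 was -0.038, -0.012 and -0.016. Total count scaling alone reversed the interactions of Gclm (0.019) and Gsr (0.071) and the averaged Keap1 (-0.021), and the FPKM scales reversed Txnrd1 in LKO against WT after tunicamycin (0.050 and 0.061). For Nfe2l2 in LKO against WT with vehicle the value was -0.00083 with total counts, -0.0048 with DESeq2, -0.0077 unfiltered, -0.011 ignoring strand and -0.00016 without Rn45s in the library sizes, the last chosen after seeing the data.

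Leaving out 1 sample at a time, the ranges of the differences that changed sign were as follows. For tunicamycin in WT, Keap1 ran from -0.033 to 0.21, Gsr from -0.064 to 0.044 and Blvra from -0.055 to 0.24. For tunicamycin in LKO, Nfe2l2 ran from -0.18 to 0.015, Txnrd1 from -0.12 to 0.018 and Gsr from -0.21 to 0.012. For LKO against WT with vehicle, Nfe2l2 ran from -0.044 to 0.064, Hmox1 from -0.30 to 0.25 and Txnrd1 from -0.027 to 0.12. After tunicamycin, Keap1 ran from -0.069 to 0.18 and Gclm from -0.060 to 0.078. Interactions of Keap1 ran from -0.13 to 0.11 and of Gsr from -0.19 to 0.019, and averaged differences of Gclm from -0.058 to 0.023 and of Gsr from -0.12 to 0.0024.

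The members called numbered 0 to 1 over the leave-outs for tunicamycin in WT and in the averaged contrast, and 1 and 2 with no filter, which leaves in genes of few reads. Counts over all genes moved more. For tunicamycin in WT, 35 genes were called, against 148 with total counts, 154 with DESeq2, 289 unfiltered, 56 with 14 libraries, 7 with the groups compared alone, 53 ignoring strand, 0 on either FPKM scale and 0 to 615 over the leave-outs. For tunicamycin in LKO, 3 were called, against 47 with DESeq2, 153 unfiltered, 5 with 14 libraries, 1 on log2(FPKM + 1) and 0 to 67 over the leave-outs. For LKO against WT with vehicle, 4 were called, against 8 with total counts, 20 with DESeq2, 84 unfiltered, 12 with 14 libraries, 25 with the groups alone, 0 on either FPKM scale and 0 to 17 over the leave-outs. For LKO against WT after tunicamycin, 83 were called, against 164, 138 and 261 with total counts, DESeq2 and no filter, 27 with the groups alone, 7 and 8 on the FPKM scales and 0 (without WT tunicamycin 1) to 183 (without WT tunicamycin 2) over the leave-outs. The interaction gave 0 to 2. The averaged contrast called 417, against 810 with total counts, 764 unfiltered, 668 with 14 libraries, 19 and 28 on the FPKM scales, 59 without WT tunicamycin 1 and 1085 without WT tunicamycin 3.

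Same-numbered samples did not deviate together (correlations -0.114 to 0.141), so the replicate numbers were not taken as pairs. A replicate block over 14 libraries called 69 genes for tunicamycin in WT, 72 in LKO, 10 for LKO against WT with vehicle and 762 in the averaged contrast, where 1 member, Gclc, passed at -0.42 (edgeR adjusted p = 0.0179), and it put Nfe2l2 at -0.052 in LKO against WT with vehicle. Among the members, few reads limit Hmox1, Srxn1, Nqo1 and Slc7a11.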
